A study of Mus musculus with 8 samples.

Results

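The Wnt pathway genes described here are 42 genes that encode Wnt receptors, signal transducers, antagonists and targets. They were taken by name from 30905 distinct gene names in the deposited expression tables of mouse retinal organoids, and each was found once in all 3 tables. The list holds 10 Frizzled receptors, 2 LRP co-receptors, 3 alternative receptors, 2 ligand secretion factors, 3 Dishevelled genes, 7 genes of β-catenin and its destruction complex, 4 TCF and LEF factors, 4 genes of the LGR receptor and ZNRF3 and RNF43 ligase module, 5 secreted antagonists and 2 further feedback genes. A gene entered the summaries of a comparison when it reached 1 FPKM in at least 1 of the 2 conditions, which held for 40 members in the 1 h comparison and for 41 in both later ones. FPKM, sequenced fragments per kilobase of transcript scaled to the depth of the library, is a level per transcript length, so levels of different genes can be set side by side. Rnf43 stayed under 1 FPKM in every comparison, and Notum did so in the 1 h comparison. At 8 h and 24 h Notum passed only through its treated level, so its ratios there were bound to be above 0. Dkk1 at 24 h passed only through its 0 h level, so that ratio was bound to be below 0. These ratios are kept in the counts and medians below.

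The organoids were grown from the mouse Rx:GFP line, in which both endogenous Mettl3 alleles carry FKBP12F36V-HA at the C-terminal end, and were sampled at day 6. METTL3 is the catalytic subunit of the methyltransferase that places N6-methyladenosine (m6A) in messenger RNA, FKBP12F36V is a degron tag, and dTAG-13 is the small molecule that sends proteins with this tag to degradation. The 4 groups had 0 h (no dTAG-13), 1 h, 8 h and 24 h of dTAG-13 at 125 nM, with 2 replicates each, and all 8 samples carried the same tagged alleles. Organoids without the tag were not analysed here, so other effects of dTAG-13 cannot be told apart from loss of METTL3. The labels state neither the solvent used at 0 h nor whether replicates were separate cultures, and they name 1 line. The deposited tables hold 1 value per condition and none per replicate, so no spread between replicates and no p-value could be given.

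Wnt proteins are lipid-modified ligands that leave the cell with the help of Porcn and Wls and bind Frizzled receptors together with the co-receptors Lrp5 and Lrp6. Without a ligand, a complex of Axin, Apc, Gsk3 and casein kinase 1α marks β-catenin for destruction; with a ligand, Dishevelled proteins inhibit this complex, and β-catenin enters the nucleus to act with TCF and LEF factors. In the forming eye, low Wnt/β-catenin activity favours neural retina and higher activity favours retinal pigment epithelium and the ciliary margin, while secreted antagonists shield the anterior neural plate.

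Before dTAG-13 each of the 10 roles had at least 1 member above 1 FPKM. Ctnnb1, which encodes β-catenin, had the highest level of all members, 546 FPKM (deposited interval 422 to 671), and stood at the 98.7th percentile of tested loci. Sfrp2, a secreted Frizzled-related antagonist, followed with 247 FPKM (200 to 295), and Csnk1a1, the casein kinase that first phosphorylates β-catenin, with 144 FPKM (114 to 175). The intervals of these 3 genes did not overlap those of the next gene in the order, though the deposited locus of Ctnnb1 also overlaps Ulk4. From Sfrp1 (66.5 FPKM) down to Tcf7l2 (10.3 FPKM) each gene's interval overlapped that of the next, so neighbours in that stretch are not told apart. Sfrp1 and Tcf7l2, at its ends, are told apart, but wide intervals such as that of Tcf7 (0 to 29.3) also overlap those of distant genes. At the low end were Dkk1 with 1.52 FPKM, Sp5 with 1.25, Fzd9 with 1.05, Notum with 0.749 and Rnf43 with 0.704 FPKM. Of these, Dkk1, Sp5, Notum and Rnf43 are genes that β-catenin is known to induce, and Axin2, the most used readout of the pathway, was at 5.32 FPKM (3.54 to 7.09). The levels given here are from the 8 h table; the 0 h level of a member differed between the 3 tables by a median of 1.02 times and by 1.12 times at most, for Tcf7l2.

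**Figure D1:**
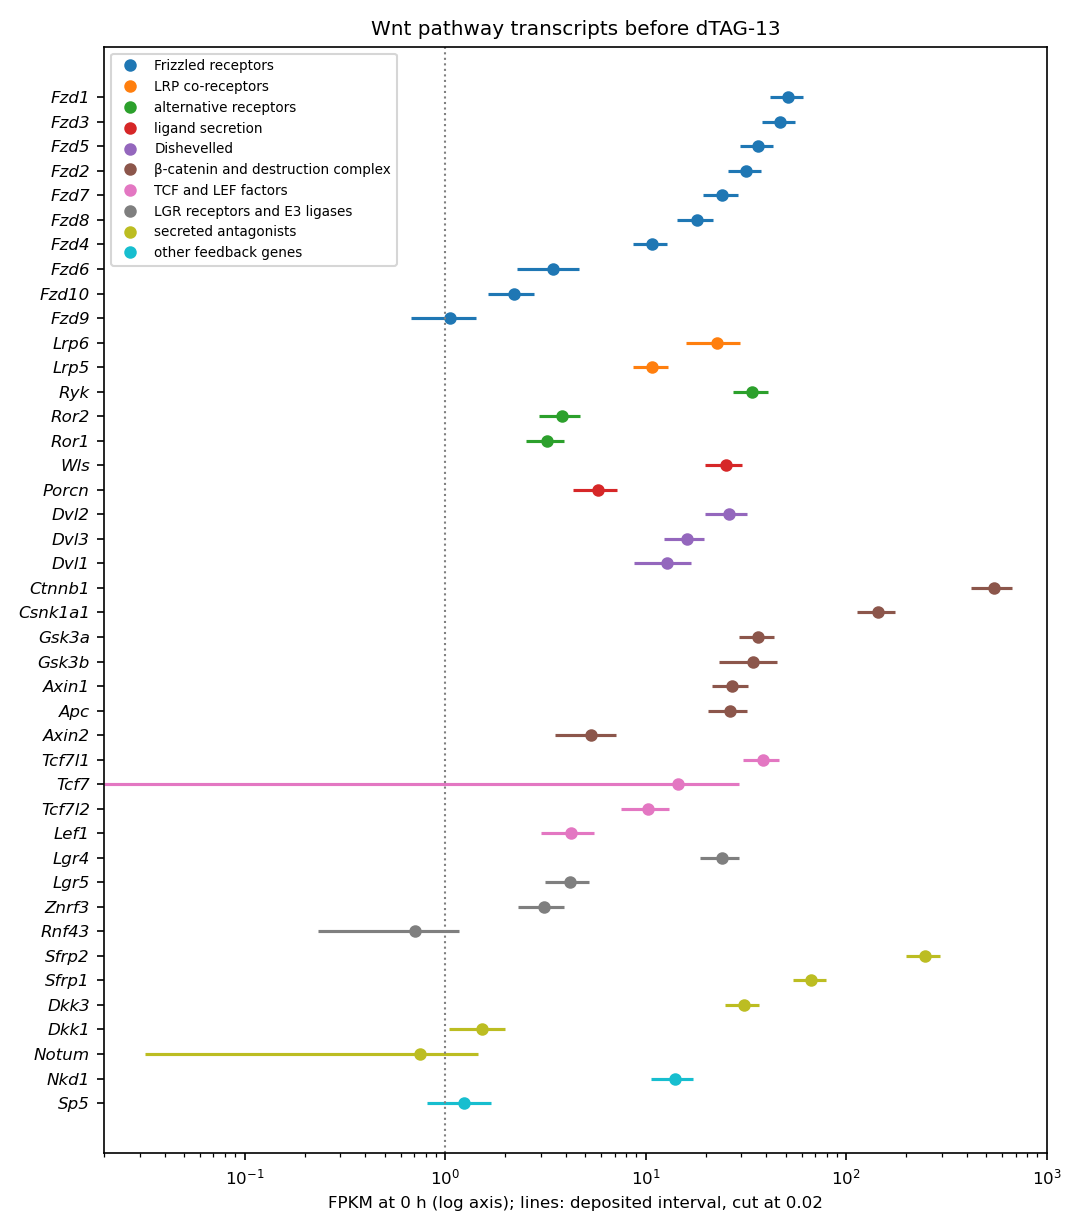
FPKM of the 42 Wnt pathway genes at 0 h on a log axis, ordered by level within each role (colours). Points are the deposited values of the 8 h table, lines are the deposited intervals, and the dotted line marks 1 FPKM. Ctnnb1, Sfrp2 and Csnk1a1 stand to the right of all other members, and Notum and Rnf43 lie under 1 FPKM.

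The organoid label was checked against marker genes. The eye field genes Rax, Pax6, Six3, Six6 and Lhx2 all exceeded 1 FPKM, and their summed level was 424 FPKM at 0 h and 579 FPKM at 24 h, with Rax and Lhx2 called higher. The 4 pluripotency genes listed also exceeded 1 FPKM, with a sum of 276 FPKM at 0 h and 180 FPKM at 24 h. Dppa5a, called lower, went from 200.4 to 109.0 FPKM and holds most of that difference, while Pou5f1, Nanog and Zfp42 were not called and Zfp42 was at 20.1 and 22.8 FPKM. The 5 pigment epithelium genes summed to 59.7 FPKM at 0 h and 96.4 FPKM at 24 h with none called; Pmel alone went from 28.9 to 60.3 FPKM with overlapping intervals, Mitf was at 19.2 and 21.4 FPKM, and Tyr and Rpe65 were listed at 0 at 0 h. Sums at 0 h and 24 h were 20.9 and 21.9 FPKM for 3 matched telencephalon genes, nearly all Emx2. For 4 midbrain and hindbrain genes they were 29.6 and 24.8 FPKM, nearly all Pax2, with En1, En2 and Hoxb1 under 1 FPKM. The sums were 2.94 and 4.23 FPKM for 5 mesoderm and endoderm genes and 6.44 and 4.89 FPKM for 3 matched neuron genes. No gene of these 4 lists was called. The 3 neural crest genes all stayed under 1 FPKM. These sums moved over the same 24 h as the changes below, and their part in those changes was not tested. In RNA from whole organoids, fewer cells of a type and less RNA per cell cannot be told apart. Mettl3 mRNA was 19.4 FPKM at 0 h and 17.0 FPKM at 24 h with overlapping intervals; dTAG-13 removes protein and no protein was measured, so this level does not check the labels.

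A call of change needed both: at least 1.5-fold between the values of FPKM + 0.1, and deposited intervals that do not overlap. By this rule no member was called at 1 h, where 0.402% of all tested loci were (0.117% higher and 0.285% lower), and none at 8 h, where 4.43% were (3.49% higher and 0.940% lower). At 24 h 3 of 41 members were called, or 7.32%, beside 5.48% of all tested loci (3.83% higher and 1.65% lower). Wls was higher, and Dkk3 and Lgr5 were lower. The share at 24 h is near the background and is no result about the pathway as a whole. Dropping the interval criterion gave 1 member past 1.5-fold at 1 h, where 5.16% of all loci were, 2 at 8 h, where 13.7% were, and 8 at 24 h, where 17.0% were. At a threshold of 2-fold Dkk3 alone, 1 of 41, was called at 24 h, where 2.14% of all loci were. From the estimated counts 6 members were called at 24 h, with Fzd6, Lgr4 and Nkd1 added to the 3, where 7.48% of all loci were. The median log2 ratio of the members was 0.01, 0.12 and -0.00 for 1, 8 and 24 h in turn, beside 0.01, 0.01 and 0.02 over all tested loci; among the 30 members with at least 5 FPKM the 8 h median was 0.06. Ratios above 0 were found for 23 of 40 members, then 29 of 41, then 20 of 41, beside 51.6%, 51.3% and 52.1% of all tested loci. Each time was set against the 0 h column of its own table, and the 3 comparisons share the same 0 h libraries.

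**Figure D2:**
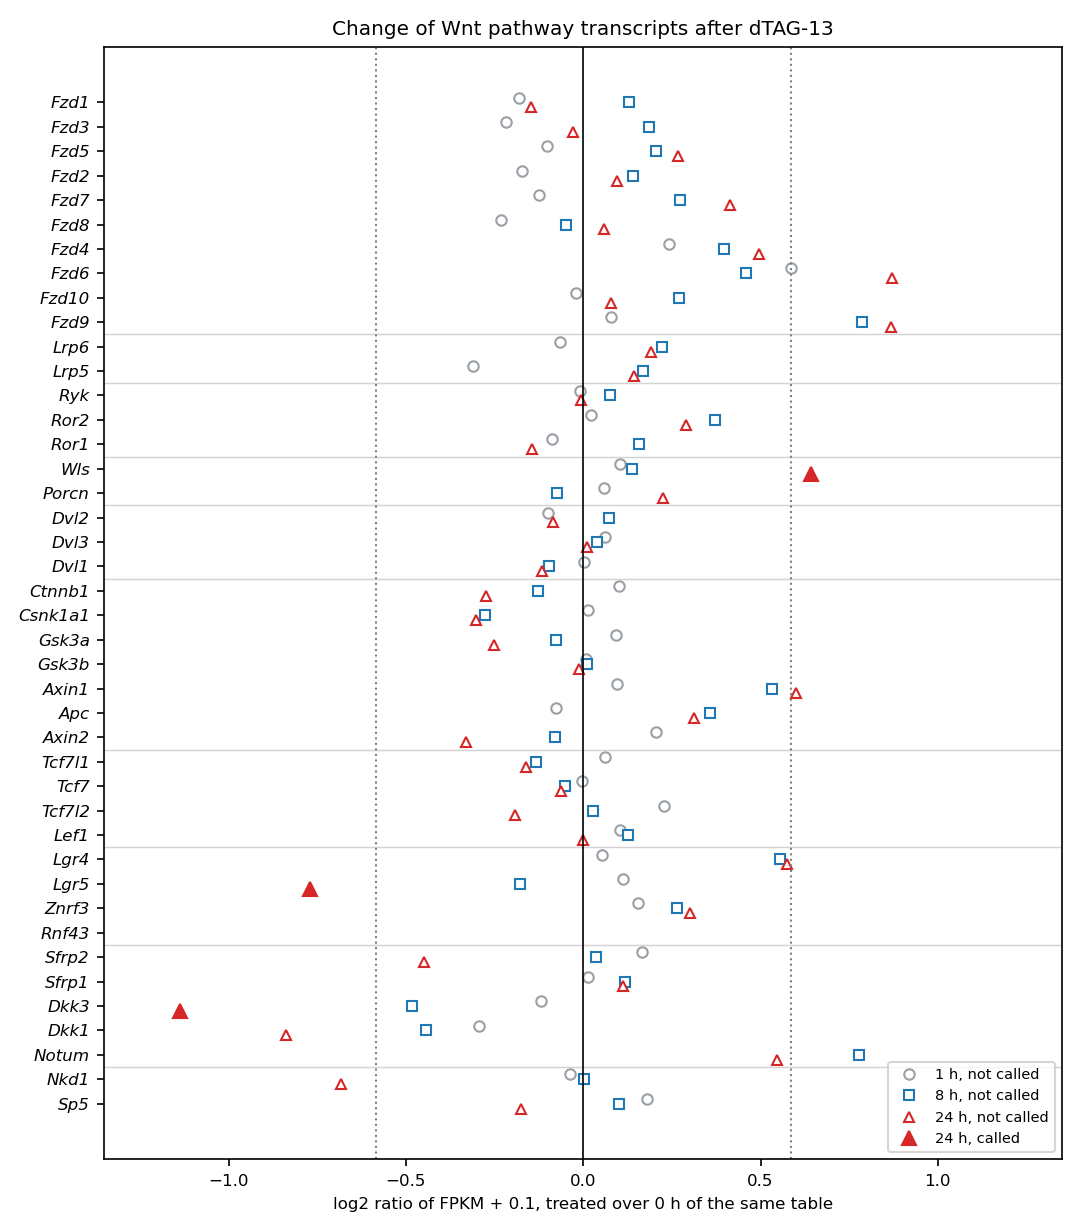
The log2 ratio of FPKM + 0.1, treated over 0 h, for each tested Wnt pathway gene at 1 h (circles), 8 h (squares) and 24 h (triangles), in the order of the plot of levels, with grey lines between roles. Filled symbols are called genes and dotted lines mark 1.5-fold; only Wls, Lgr5 and Dkk3 at 24 h are filled.

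GGACT is the most common five-base form of the sequence in which METTL3 methylates adenosine, and m6A itself was not measured here. The coding sequences of the members held a median of 0.94 such strings per kilobase at 8 h, beside 1.06 over all genes with a gene model. The windows below show each GGACT in the coding sequence of the 3 called members and of the 2 Frizzled genes with the largest ratios, with the 5 letters in capitals and 13 bases on each side, in transcript direction from GENCODE M21 on GRCm38.
Dkk3, exon 2 of 8, chr7:112158293-112158323, - strand: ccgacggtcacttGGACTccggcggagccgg
Lgr5, exon 1 of 18, chr10:115587327-115587357, - strand: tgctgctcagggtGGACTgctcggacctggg
Lgr5, exon 6 of 18, chr10:115475179-115475209, - strand: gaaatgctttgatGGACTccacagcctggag
Wls, exon 3 of 12, chr3:159897381-159897411, + strand: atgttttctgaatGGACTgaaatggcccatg
Wls, exon 8 of 12, chr3:159911782-159911812, + strand: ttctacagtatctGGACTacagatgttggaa
Fzd6, exon 4 of 7, chr15:39030924-39030954, + strand: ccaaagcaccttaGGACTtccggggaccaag
Fzd6, exon 6 of 7, chr15:39035092-39035122, + strand: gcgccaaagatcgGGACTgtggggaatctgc
Fzd9, the only exon, chr5:135250326-135250356, - strand: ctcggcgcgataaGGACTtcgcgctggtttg
Fzd9, the only exon, chr5:135249591-135249621, - strand: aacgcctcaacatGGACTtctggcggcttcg
Genes on both sides hold the string in their coding sequence. Dkk3 and Lgr5, which were lower at 24 h, have 1 and 2 of them, and Wls, which was higher, has 2. Strings in the untranslated parts of these transcripts are not counted or shown, and a link between the string and the direction of change was not tested. The 10 members with none in their coding sequence are Dkk1, Fzd2, Fzd5, Fzd7, Gsk3a, Lef1, Porcn, Sfrp1, Sfrp2 and Tcf7. Their log2 ratios at 8 h ran from -0.44 to 0.27 with a median of 0.08, and those of the 31 tested members with at least 1 ran from -0.48 to 0.78 with a median of 0.13. At 24 h the order was the other way, with medians of 0.05 for members with none and -0.01 for those with at least 1. At 1 h the medians were 0.01 and 0.02. A difference by this string was not tested.

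Ligand secretion came first in the order of the pathway, with Wls, the cargo receptor that carries Wnt proteins to the cell surface (chr3:159839672-159938664, + strand, GRCm38). Wls was at 25.2 FPKM (19.8 to 30.5) at 0 h and at 39.3 FPKM (31.2 to 47.5) at 24 h, a log2 ratio of 0.64 with a standard error of 0.20 from the deposited variances. The earlier levels were 26.6 FPKM at 1 h against 24.8 at 0 h and 27.6 FPKM at 8 h against 25.1, with log2 ratios of 0.10 and 0.14. The intervals at 24 h are apart by 0.688 FPKM, while those of the earlier times overlap. Porcn, the acyltransferase that attaches the lipid, was at 5.79 FPKM at 0 h and 6.79 FPKM at 24 h, a log2 ratio of 0.23, and was not called.

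The Frizzled genes, the membrane receptors for Wnt ligands, were all transcribed. Their 0 h levels ran in the order Fzd1 (51.3 FPKM), Fzd3 (47.0), Fzd5 (36.5), Fzd2 (31.7), Fzd7 (24.1), Fzd8 (18.0), Fzd4 (10.7), Fzd6 (3.47), Fzd10 (2.22) and Fzd9 (1.05). Neighbours in this order overlapped in their intervals except at 3 steps, from Fzd8 to Fzd4, from Fzd4 to Fzd6 and from Fzd10 to Fzd9. The 5 highest gave 84.3% of the summed Frizzled level. Fzd5, the Frizzled gene best known for its role in the eye field, was the third of them.

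No Frizzled gene was called at any time. The median log2 ratio of the 10 genes was -0.11, 0.24 and 0.18 for 1, 8 and 24 h. Beside 51.6%, 51.3% and 52.1% of all tested loci, 3, 9 and 8 of the Frizzled genes were above 0. Their summed level was 226 FPKM at 0 h and 257 FPKM at 8 h, a log2 ratio of 0.18, so the positive ratios at 8 h were small for the genes that carry most of the family's transcripts. Fzd1 was at 51.3 FPKM at 0 h and 56.1 FPKM at 8 h, and at 46.5 FPKM at 24 h against 51.5. Fzd3 had 53.5 FPKM at 8 h against 47.0, and 46.3 at 24 h against 47.2. Fzd2 had 34.9 FPKM at 8 h against 31.7, and 34.0 at 24 h against 31.8. The log2 ratios of these 3 genes at the later times lay between -0.15 and 0.18. Fzd5 went from 36.5 to 42.1 FPKM at 8 h and from 36.6 to 44.1 at 24 h, and Fzd7 from 24.1 to 29.1 and from 24.2 to 32.3. Fzd4 went from 10.7 to 14.1 FPKM and from 10.8 to 15.2, and Fzd8 from 18.0 to 17.4 and from 18.1 to 18.8. At 1 h the levels of Fzd1, Fzd2, Fzd3, Fzd5, Fzd7 and Fzd8 were 44.7, 27.8, 39.9, 33.6, 21.8 and 15.1 FPKM, each under its 0 h value with overlapping intervals, and those of Fzd4 and Fzd10 were 12.5 and 2.16 FPKM. Fzd10 was at 2.69 FPKM at 8 h against 2.22, and at 2.35 at 24 h.

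The largest Frizzled ratios were those of 2 genes at low levels. Fzd6, which is known from planar cell polarity (chr15:39006034-39038188, + strand), was at 5.20 FPKM (3.59 to 6.80) at 1 h against 3.43 (2.21 to 4.64), at 4.81 (3.58 to 6.04) at 8 h against 3.47, and at 6.45 (4.52 to 8.38) at 24 h against 3.48 (2.29 to 4.67). Its log2 ratios were 0.59, 0.46 and 0.87, the last with a standard error of 0.23. Fzd9 (chr5:135248938-135251230, - strand) was at 1.11 FPKM at 1 h against 1.04, at 1.89 (1.33 to 2.45) at 8 h against 1.05 (0.677 to 1.43), and at 2.01 (1.42 to 2.60) at 24 h against 1.06 (0.674 to 1.44). Its log2 ratios were 0.08, 0.78 and 0.87, the last with a standard error of 0.34. In both genes the 24 h interval overlapped that of 0 h by a narrow margin, and neither was called from FPKM.

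**Figure D3:**
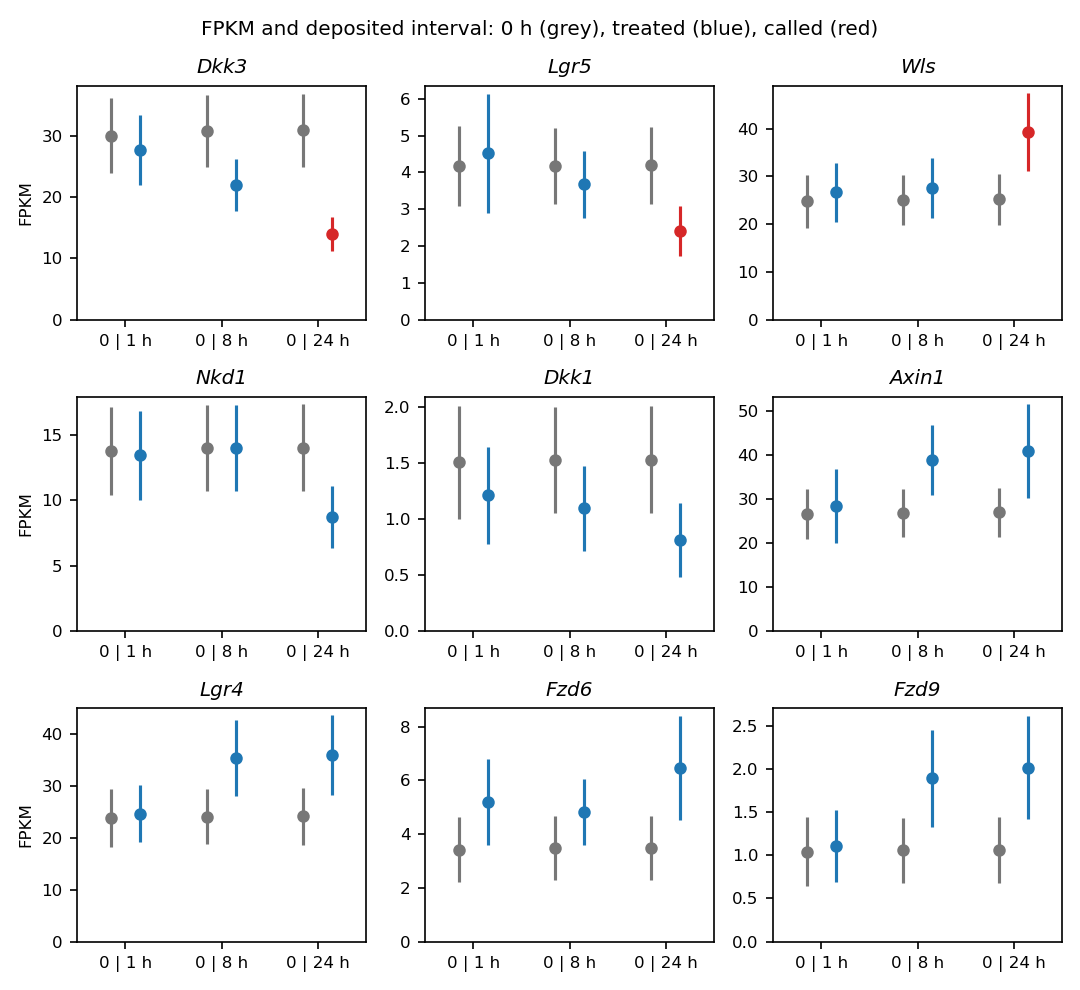
FPKM of 9 Wnt pathway genes at 0 h (grey) and after dTAG-13 (blue, or red where called) in each of the 3 tables, with deposited intervals as lines and axes that start at 0. Dkk3 and Lgr5 are under their 0 h interval at 24 h and Wls is above it; the other 6 overlap at every time.

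The other receptors showed no called change. Lrp6, the main co-receptor, was at 22.9 FPKM at 1 h against 24.0, at 26.6 at 8 h against 22.8, and at 26.1 at 24 h against 22.8. Lrp5 had log2 ratios of -0.31, 0.17 and 0.14. Ryk, an atypical receptor tyrosine kinase that binds Wnt, was at 33.4 FPKM at 1 h against 33.6, at 35.8 at 8 h against 34.0, and at 33.9 at 24 h against 34.1. Ror1 and Ror2, the receptors of Wnt5a, were at 3.23 and 3.81 FPKM at 0 h, and Ror2 had the largest ratio of the group, 0.37 at 8 h. Among the Dishevelled genes, which relay the signal from Frizzled, Dvl2 was highest, with 23.9 FPKM at 1 h against 25.7, 27.3 at 8 h against 26.0 and 24.6 at 24 h against 26.1. All Dishevelled ratios lay between -0.12 and 0.07. The deposited locus of Dvl2 overlaps Acadvl, which was also expressed, so part of its reads may belong to either.

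Within β-catenin and its destruction complex, ratios at 24 h went both ways and none was called. Ctnnb1 (chr9:120929216-120960507, + strand) was at 579 FPKM at 1 h against 540 and at 500 at 8 h against 546. At 24 h it was at 453 (349 to 558) against 548 (422 to 674). Its log2 ratios were 0.10, -0.13 and -0.27. The deposited locus of Ctnnb1 spans 352746 bases, beside 31292 for the gene, and overlaps Ulk4. Csnk1a1, Gsk3a and Axin2 had ratios of -0.30, -0.25 and -0.33 at 24 h, and Gsk3b of -0.01. Axin1 and Apc were the 2 of the 7 with ratios above 0 at 24 h. Axin1 (chr17:26138688-26195811, + strand), the scaffold whose amount is known to limit the complex, was at 28.4 FPKM at 1 h against 26.6, at 39.0 (31.0 to 46.9) at 8 h against 26.9 (21.4 to 32.4), and at 41.0 (30.3 to 51.7) at 24 h against 27.0 (21.4 to 32.6). Its log2 ratios were 0.10, 0.53 and 0.60, and its intervals overlapped at each time. Apc had ratios of 0.36 at 8 h and 0.31 at 24 h. The median of the 7 genes was 0.09, -0.08 and -0.25 for 1, 8 and 24 h.

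The TCF and LEF factors, the DNA-binding partners of β-catenin, had small ratios throughout. Tcf7l1, which acts mostly as a repressor and is needed for forebrain and eye, was highest, with 39.6 FPKM at 1 h against 38.0, 35.0 at 8 h against 38.4, and 34.4 at 24 h against 38.6. All 4 factors had ratios between -0.19 and -0.00 at 24 h, with none past 1.5-fold. The level of Tcf7 is uncertain: its locus overlaps Cdkl3, Cdkn2aipnl, Ppp2ca, Skp1a and Ube2b, and its 0 h interval ran from 0.00 to 29.3 FPKM.

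The receptors for R-spondins had ratios of opposite sign at 24 h, and only that of Lgr5 was called. Lgr4 (chr2:109917647-110014257, + strand), which potentiates Wnt signals, was at 24.6 FPKM (19.1 to 30.2) at 1 h against 23.8, at 35.3 (28.0 to 42.7) at 8 h against 24.0 (18.7 to 29.4), and at 36.0 (28.3 to 43.6) at 24 h against 24.1 (18.7 to 29.6). Its log2 ratios of 0.55 and 0.57 at 8 h and 24 h stay under 1.5-fold and it was not called. Lgr5 (chr10:115450311-115587780, - strand), a β-catenin target that serves as a stem cell marker in other tissues, was at 4.52 FPKM (2.91 to 6.13) at 1 h against 4.17, at 3.68 (2.76 to 4.60) at 8 h against 4.18, and at 2.42 (1.73 to 3.10) at 24 h against 4.19 (3.14 to 5.24). Only the last pair of intervals is apart, by 0.043 FPKM. Its log2 ratio of -0.77 at 24 h had a standard error of 0.23. Znrf3, a ligase that removes Frizzled from the membrane, had ratios of 0.26 and 0.30 at 8 h and 24 h, and Rnf43, its paralogue, was too low to be tested.

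The list of secreted antagonists held the largest change of any member, that of Dkk3. Whether Dkk3 acts as a Wnt antagonist in these organoids was not measured. Dkk3, a divergent member of the Dickkopf family (chr7:112116017-112159057, - strand), was at 27.7 FPKM (22.0 to 33.4) at 1 h against 30.0 (23.9 to 36.2), at 22.0 (17.7 to 26.3) at 8 h against 30.8 (24.9 to 36.7), and at 14.0 (11.2 to 16.8) at 24 h against 30.9 (24.9 to 36.9). The level was lower at each later time, and its interval lay 8.11 FPKM under that of 0 h at 24 h. The log2 ratios were -0.12, -0.48 and -1.14, each with a standard error of 0.20 to 0.21. Dkk1, the classical LRP antagonist that β-catenin also induces, was at 1.21 FPKM at 1 h against 1.5, at 1.09 at 8 h against 1.52, and at 0.810 (0.478 to 1.14) at 24 h against 1.53 (1.05 to 2.01). Its log2 ratios were -0.29, -0.44 and -0.84, with overlapping intervals throughout. Sfrp2, the most abundant antagonist, was at 274 FPKM at 1 h against 244, at 254 at 8 h against 247, and at 182 (146 to 218) at 24 h against 248 (200 to 297), a log2 ratio of -0.45. Sfrp1 stayed within 0.12 of its 0 h level on the log2 scale. Notum, an enzyme that removes the lipid from Wnt proteins, was at 0.999 FPKM at 1 h against 0.742, at 1.36 (0.644 to 2.07) at 8 h against 0.749 (0.0319 to 1.47), and at 1.14 at 24 h against 0.752; its intervals are too wide to show a difference at this depth. The median of the 5 antagonists at 24 h was -0.45, with 3 below 0.

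A cross-list holds the 10 members known to be induced by β-catenin: Axin2, Lef1, Tcf7, Sp5, Nkd1, Notum, Lgr5, Rnf43, Znrf3 and Dkk1. Their median log2 ratio was 0.11 over 8 tested genes at 1 h, then 0.00 and -0.17 over 9 tested genes at the later times; from the estimated counts it was -0.00, -0.02 and -0.19. At 24 h 7 of the 9 were below 0, beside 47.9% of all tested loci. Of the 9, 1 (11.1%) was called, beside 5.48% of all tested loci. Lef1 and Tcf7, counted among the 7, were at -0.00 and -0.06. Nkd1, an inhibitor that binds Dishevelled (chr8:88521354-88594884, + strand), was at 13.5 FPKM at 1 h against 13.8, at 14.0 at 8 h against 14.0, and at 8.71 (6.33 to 11.1) at 24 h against 14.0 (10.7 to 17.4). Its log2 ratio of -0.68 at 24 h passed 1.5-fold, with intervals that overlapped by a narrow margin. Sp5, a transcription factor that dampens the response, was at 1.10 FPKM at 24 h against 1.25. The list was chosen with earlier results of these data known, and the count is a description.

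The bases that TCF and LEF factors are known to read, CTTTGAA or CTTTGAT on either strand, were searched in RefSeq promoters of GRCm38.p6, which run from 250 bases before to 50 after a gene's start. The letters occur in 2842 of 32851 promoters, or 8.65%. The 27 members matched by symbol have 34 promoters, and 3 of these promoters held them. They belong to Dkk1, Gsk3a and Sp5, with the match at 117, 158 and 104 bases before the start. Among the β-catenin-induced members, 7 were matched and 2 held them, a count by gene and not by promoter. The 250 bases before the start of Sp5 (chr2:70474673-70474922, + strand) are shown as the example from the feedback genes, with the matched letters in capitals.
Sp5: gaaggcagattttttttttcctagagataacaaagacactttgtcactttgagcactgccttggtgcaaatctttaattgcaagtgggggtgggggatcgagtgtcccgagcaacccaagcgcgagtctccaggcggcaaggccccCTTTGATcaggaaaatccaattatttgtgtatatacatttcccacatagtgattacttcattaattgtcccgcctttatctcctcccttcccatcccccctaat
A match is a string of letters and does not show binding.

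Most Frizzled genes are built differently from the other members. Fzd1, Fzd2, Fzd5, Fzd7, Fzd8, Fzd9 and Fzd10 each have their whole coding sequence in 1 exon, Fzd4 has 2 coding exons, and Fzd3 and Fzd6 have 6. The exon junction complex, deposited near splice junctions, is known to keep m6A off nearby bases, so m6A is found mostly in long internal exons, last exons and genes with few junctions. Over all 10955 tested genes with a gene model at 8 h, the Spearman correlation between junctions per kilobase of coding sequence and the log2 ratio was -0.47; over the 41 members it was -0.49. At 24 h the values were -0.40 and -0.28, and at 1 h 0.10 and 0.23. These correlations run across genes of the same libraries and carry no test.

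The single-coding-exon members had smaller median ratios than all single-coding-exon genes. The 7 genes had median log2 ratios of -0.13, 0.21 and 0.10 at 1, 8 and 24 h, with none called. Of all 646 single-coding-exon genes tested at 8 h, 19.2% were called higher and the median was 0.38, and at 24 h 20.5% of 648 were, with a median of 0.37. Ratios above 0 at 8 h were found for 6 of the 7 and for 501 of the 646. In the lowest quartile of junction density, 20 members had medians of 0.20 at 8 h and 0.10 at 24 h with none called, beside 12.8% and 13.5% called higher and medians of 0.33 and 0.31 over all genes of that quartile. All 3 called members, Wls, Dkk3 and Lgr5, lie in the middle range of density, with 6.78, 5.73 and 6.25 junctions per kilobase. Whether the members differ from other genes of like architecture was not tested.

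**Figure D4:**
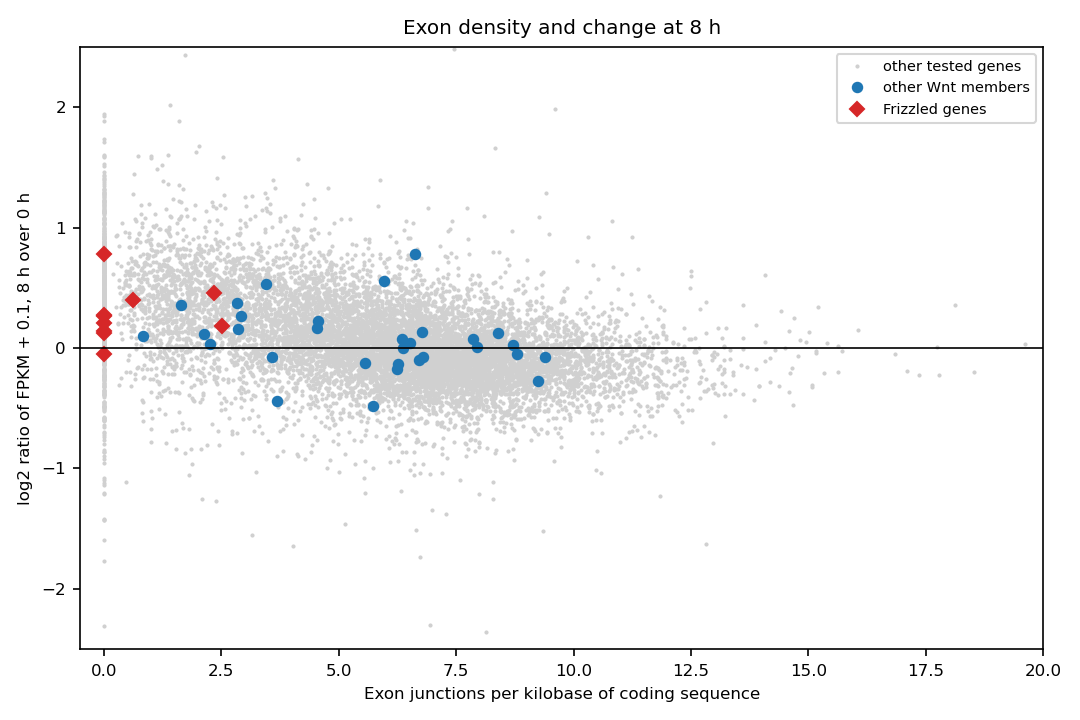
The log2 ratio at 8 h against exon junctions per kilobase of coding sequence for tested genes (grey), Frizzled genes (red diamonds) and the other Wnt pathway genes (blue). Frizzled genes crowd at the left edge, between -0.05 and 0.78, among the genes with few junctions; 5 genes, none of them a member, lie outside the axes.

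A wider list of 117 further Wnt pathway genes gave 80 tested genes at 1 h and 83 at each later time. None was called at 1 h. At 8 h 8 of 83 (9.64%) were called, all higher, where 3.49% of all tested loci were called higher and 0.940% lower. At 24 h 6 were called higher and 1 lower, where 3.83% of all tested loci were called higher and 1.65% lower. The median log2 ratio was -0.03, 0.16 and 0.16 at the 3 times. At a threshold of 2-fold none (0) was called at 8 h, where 1.57% of all loci were, and 1 of 83, Pygo1, at 24 h, where 2.14% were. Of the 9 genes called higher at either time, 8 lie under 3.85 junctions per kilobase of coding sequence, the lower quartile of all tested genes, and Hipk2 is at 3.90. This was looked at after the calls were known, and of all genes called higher 81.5% at 8 h and 81.4% at 24 h lie at or under that quartile of density too.

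Several of the called genes act on the nuclear or cytoplasmic end of the pathway. Bcl9l and Pygo1, cofactors that join β-catenin to chromatin regulators, were at 11.0 FPKM against 5.64 and at 10.4 against 6.12 at 8 h, and at 10.9 against 5.66 and 12.5 against 6.14 at 24 h. At 1 h they were at 5.43 FPKM against 5.57 and at 5.53 against 6.05. Their log2 ratios were -0.04 and -0.13 at 1 h, not called, and 0.95 and 0.75 at 8 h, both called. Rnf146, the ligase that removes Axin after it is marked by tankyrase, was at 41.9 FPKM at 1 h against 43.6, at 82.3 at 8 h against 44.1 and at 81.8 at 24 h against 44.3; its locus overlaps Echdc1, which was also expressed. Bambi, a membrane pseudoreceptor that modulates TGF-β and Wnt signals, was at 1.32 FPKM at 1 h against 1.19, at 2.08 at 8 h against 1.21 and at 2.35 at 24 h against 1.21. Prickle2, of the planar cell polarity pathway, was at 0.981 FPKM at 1 h against 1.02, at 1.71 at 8 h against 1.03 and at 1.84 at 24 h against 1.03. With 1 FPKM added in place of 0.1, Bambi was not called at 8 h and Prickle2 at neither time.

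Another 3 genes were called at 8 h and not at 24 h. Hipk2, a nuclear kinase, was at 22.6 FPKM at 1 h against 22.4, at 35.2 at 8 h against 21.5 and at 30.9 at 24 h against 21.6. Siah1a, a ubiquitin ligase, was at 22.7 FPKM against 19.8, at 32.6 against 20.1 and at 29.7 against 20.1. Cxxc5, which binds Dishevelled, was at 27.9 FPKM against 25.8, at 43.0 against 27.5 and at 34.4 against 27.6. The change between 8 h and 24 h was not tested. Tbx3, a T-box factor listed as a target gene, was called at 24 h, with 3.30 FPKM at 1 h against 2.78, 4.47 at 8 h against 2.82 and 5.61 at 24 h against 2.83.

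Of the 19 Wnt ligand genes, 6 reached 1 FPKM in at least 1 condition of the 8 h and of the 24 h comparison. Wnt9a did so in the 8 h comparison only through its treated level, 1.06 FPKM. Wnt5b was highest at 0 h with 20.2 FPKM, followed by Wnt7b with 10.4, Wnt8b with 4.17, Wnt5a with 3.33, Wnt1 with 1.99 and Wnt9a with 0.997 FPKM. Wnt8b, a ligand of the dorsal forebrain, was at 3.09 FPKM at 1 h against 4.13, at 4.36 at 8 h against 4.17 and at 2.31 (1.72 to 2.91) at 24 h against 4.19 (3.23 to 5.15), and was called lower at 24 h with a log2 ratio of -0.83. Wnt8b was the single ligand called.

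**Figure D5:**
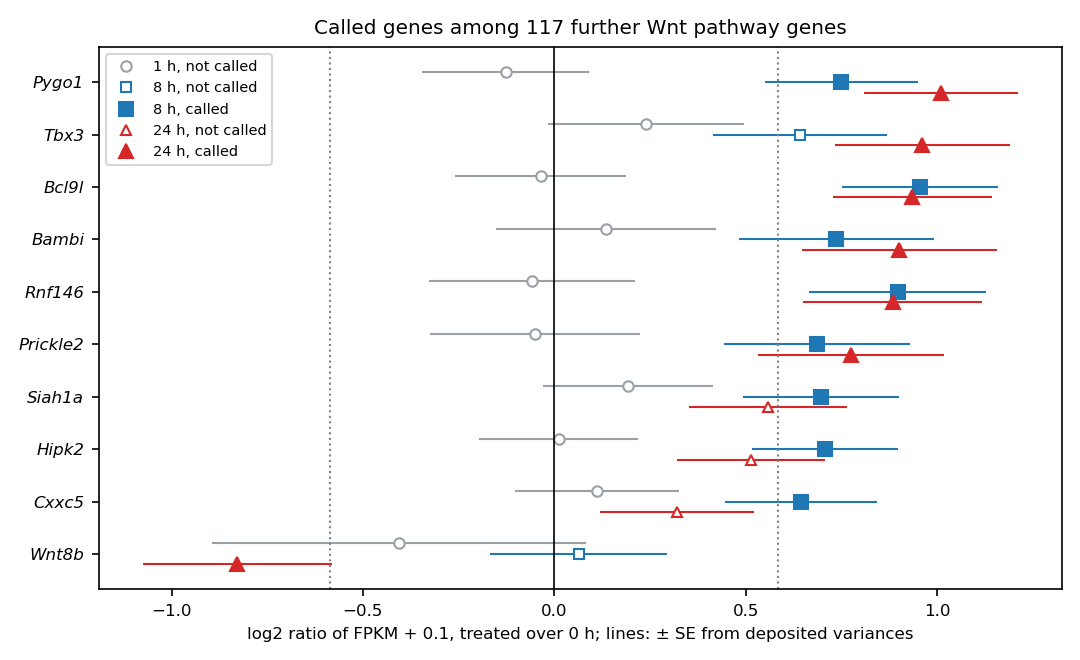
The log2 ratio of FPKM + 0.1 for the 10 called genes among 117 further Wnt pathway genes at 1 h (circles), 8 h (squares) and 24 h (triangles), with standard errors from the deposited variances as lines. Filled symbols are called and dotted lines mark 1.5-fold; Wnt8b at 24 h is the single called gene on the left.

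The estimated counts and their variances set the precision of these ratios. The counts summed to between 31361500 and 32562100 per condition, and those of the members ran from 30.7 to 50636. The half-width of the 0 h interval was a median of 22.5% to 23.7% of a member's FPKM across the 3 tables, and the median standard error of a member's log2 ratio was 0.20 to 0.21. It was nearly the same for Ctnnb1, at 0.192 with 49430 counts at 0 h in the 8 h table, as for Fzd2, at 0.195 with 3660. The calling rule asks for far more than 1 standard error: Fzd6 at 0.87, Nkd1 at -0.68 and Axin1 at 0.60 were not called at 24 h, so a member that was not called is not shown to be unchanged.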

How the data were processed

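Polyadenylated RNA from 8 samples in 4 groups was sequenced. The samples were put in groups by their titles. A 2 h treatment, and treatment at day 5 as well as day 6, are named in the treatment protocol; a 2 h sample was not analysed here. The protocol says that duplicates went through separate rounds of library preparation, which the tables do not separate, and all samples carry 1 batch entry.

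Per the submitters' processing notes, Cufflinks 2.2.1, Cuffdiff and mm10 were used; the annotation and the level of the intervals are not given in the sources used here. The authors deposited FPKM with lower and upper bounds in 3 tables, and estimated counts with variances in 3 more, each table pairing 0 h with 1 treated time in 1 value per condition. Each table was normalized by itself, so ratios stay within a table. Loci without a gene name held 1.04% to 1.08% of the deposited estimated counts.

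From these, log2((FPKM + 0.1) / (FPKM at 0 h + 0.1)) was computed, and this compresses the ratios of weakly expressed genes. Testing took a locus with 1 FPKM or more in 1 condition and status OK in both, and calling took 1.5-fold or more with intervals apart. Called loci with counts above 0 in both conditions numbered 42, 599 and 742 at 1, 8 and 24 h. Of these, 9, 6 and 9 had an FPKM interval under 0.5 times the width that the deposited count variance gives. Those loci stay in the shares given for all tested loci, and no member or called pathway gene was among them (lowest 0.957). The rule was run on simulated data with planted changes larger than 1.5-fold, levels above the 1 FPKM filter and noise drawn from the deposited variances. Loci with such narrow intervals were left out there. That run does not show how the rule behaves on them, on smaller changes or on genes near 1 FPKM. The members and all lists were chosen with earlier results of these data known. 1 marker gene was left out of its list and is not reported here. Genes named with values were called members, members past 1.5-fold, the highest member of each role, all Frizzled genes and the called genes of the wider list; others named, such as Axin2, Lrp5 and Sfrp1, were added after their values were seen. Gene models came from GENCODE M21 and promoters from RefSeq GRCm38.p6. Python 3.11.15, pandas 2.3.3, numpy 2.4.6 and matplotlib 3.10.9 were used. Fold, interval, pseudocount, level filter, counts and centring were varied.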

Additional observations from a re-analysis of the deposited data

How the results depend on the processing

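No paired analysis was possible because the tables hold 1 value per condition; leaving out a replicate was not run for the same reason. The members called at 24 h numbered 1 (Dkk3) at a fold of 2, 8 without the interval criterion and 6 from estimated counts, which added Fzd6, Lgr4 and Nkd1 to Wls, Dkk3 and Lgr5. With at least 5 FPKM, a level that Lgr5 did not reach, they numbered 2 (Wls and Dkk3), where 5.33% of all loci were called. Without the interval criterion 1 member was called at 1 h and 2 at 8 h. Of the further pathway genes, at a fold of 2 none (0) was called at 8 h and 1 at 24 h; 4 were called at 24 h with at least 5 FPKM, where fewer genes were tested, and 1 at 1 h without the interval criterion. The cause of the difference between FPKM and counts was not tested. The members' median at 8 h was 0.06 with at least 5 FPKM and 0.10 to 0.13 otherwise; the median of Frizzled genes ran from -0.15 to -0.09 at 1 h, from 0.19 to 0.24 at 8 h and from 0.16 to 0.19 at 24 h. Named genes were scored 425 times under the other settings, where 19 lost their call, 12 gained one and none (0) changed sign with a call. The fold, interval, level and pseudocount settings cannot change the sign of a ratio. Only counts and centring could have shown such a change. Another setting, added after seeing the data, left out the 4 members whose deposited locus overlaps another expressed gene. The counts of calls stayed as they were, and the members' median at 24 h was 0.06. Notum, Rnf43, Fzd9, Sp5 and Dkk1 have the fewest counts, and depth limits these most.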
